A study of Oryctolagus cuniculus with 16 samples.

Results

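The granule genes of the marrow's granulocyte precursors were followed through 4 kinds of implant site in rabbit bone. Members were the rows of the deposited gene table that carry the symbol EPX, PRG3, MPO, LCN2 or CAMP, which gave 5 genes of 29587. Of these, 2 are eosinophil genes and 3 are neutrophil genes, and all 5 passed the filter on low counts that left 11617 genes for testing. The members and the gene lists set beside them were chosen with earlier results of these data known.

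The samples came from 4 rabbits (Oryctolagus cuniculus), each of which had a drilled site at the proximal and the distal end of both tibiae. A Sham site was drilled without an implant named in its label, a Turned Ti site held a turned implant of commercially pure titanium, an SLA Ti site held titanium that had been sandblasted and acid-etched, and a Turned Cu site held a turned implant of copper. Every rabbit carried all 4 kinds, and each kind occupied each of the 4 positions once, so a group held 4 libraries, one from each rabbit, and the library number is the rabbit's. All sites were sampled 10 days after surgery by scraping the wall of the hole once the implant was out, and total RNA was sequenced. The labels used here give no strain, sex or age. A scraping of this kind holds bone, marrow and inflammatory cells together, so in every value below fewer cells of a type and less RNA per cell cannot be told apart.

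Granulocytes make the proteins of their granules in the marrow, in steps, and carry the finished granules into blood and tissue after the messages have been shut off. The peroxidase MPO belongs to the primary granules that neutrophil promyelocytes lay down first, whereas LCN2 and CAMP belong to the secondary granules that myelocytes and metamyelocytes fill later. Eosinophil precursors make their own peroxidase, EPX, and basic proteins of the major basic protein family, of which PRG3 is one. Messages of these genes are therefore read as marks of precursors rather than of granulocytes that have left the marrow, although LCN2 is also made by other cells in inflamed tissue.

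In the gene table MPO (ENSOCUG00000006526) lies on the plus strand of chromosome 19 from 29979881 to 29987807 and EPX (ENSOCUG00000010009) on the minus strand of the same chromosome from 30034491 to 30043913, a gap of 46683 bp. The third peroxidase of this cluster, LPO, which is known from milk and saliva, lies between them and drew 1 count over all 16 libraries. PRG3 (ENSOCUG00000003089) was placed on chromosome 1 from 190466554 to 190470774 and CAMP (ENSOCUG00000015518) on chromosome 9 from 16030275 to 16031921. LCN2 (ENSOCUG00000021002) was placed on scaffold GL018847 from 453615 to 456754. These are spans of whole genes as the table states them, with no genome build named in the labels or headers read here, and 0 gene models of the table overlapped any of the 5.

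Levels are given as CPM, the usual per-million scale of counts, here over library sizes scaled by TMM factors. Totals ran from 8539984 to 20406474 counts, of which protein-coding genes outside the mitochondrial genome took 965804 to 3960681. Ribosomal RNA took 65.3% of Sham 2, 49.6% of Turned Ti 4 and 44.8% of SLA Ti 4, and at most 28.4% of each other library. With ribosomal RNA set aside, mitochondrial transcripts made up 74.1% of Turned Cu 2 and 65.5% of Turned Cu 4, against 12.1% to 39.6% elsewhere. A floor of 3 counts corresponded to 0.382 to 0.585 CPM in the copper libraries and to 0.0970 to 0.404 CPM in the others, for counting error only.

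EPX, the eosinophil peroxidase, was found in 11 of the 12 libraries without copper and in 0 of the 4 with copper. In the Sham libraries of rabbits 1 to 4 it stood at 1.07, 0, 28.1 and 2.57 CPM. In Turned Ti it stood at 29.0, 1.28, 0.215 and 148 CPM, and in SLA Ti at 425, 0.954, 44.3 and 22.8 CPM. One library carried most of each group's level, namely Sham 3 with 88.5%, Turned Ti 4 with 82.9% and SLA Ti 1 with 86.2% of the summed CPM. The means of 7.94 ± 13.49 (SD, n = 4) in Sham, 44.7 ± 70.3 in Turned Ti and 123 ± 202 in SLA Ti therefore had SDs larger than themselves, and the 3 ranges overlapped. Every Turned Cu library held 0 counts of EPX.

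PRG3, a basic protein of eosinophil granules, followed the peroxidase library by library. It stood at 1.43, 0.135, 19.96 and 2.05 CPM in Sham libraries 1 to 4. It stood at 19.0, 0.935, 0.108 and 58.6 CPM in Turned Ti, and at 437, 1.15, 41.1 and 11.6 CPM in SLA Ti. The same 3 libraries as for EPX were the highest of their groups, and rabbit 2 stood at or below 1.15 CPM at all 3 of these sites. In Turned Cu, PRG3 was listed at 0 in libraries 1, 2 and 3 and held 3 counts (0.516 CPM) in library 4. Group means were 5.89 ± 9.41 CPM in Sham, 19.7 ± 27.4 in Turned Ti, 123 ± 210 in SLA Ti and 0.129 ± 0.258 in Turned Cu (SD, n = 4 each).

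MPO, the primary granule peroxidase of neutrophils, was the least abundant of the neutrophil members per length, with a mean of 19.7 CPM per kb in SLA Ti against 710.0 for LCN2 and 420.5 for CAMP. It stood at 1.67, 1.48, 11.1 and 4.90 CPM in Sham libraries 1 to 4, and at 19.8, 1.67, 0.538 and 124 CPM in Turned Ti. In SLA Ti it stood at 54.7, 6.97, 27.6 and 59.8 CPM, which spread it more evenly over the rabbits than the eosinophil genes, with 40.1% of the group's summed CPM in the highest library. Turned Cu libraries 1 to 4 held 0.718, 0, 1.78 and 0 CPM of MPO, that is 19 counts in all, all of them in libraries 1 and 3. Means were 4.80 ± 4.51 CPM in Sham, 36.5 ± 59.02 in Turned Ti, 37.3 ± 24.7 in SLA Ti and 0.625 ± 0.843 in Turned Cu (SD, n = 4 each). Copper overlapped Sham and Turned Ti and lay below all 4 SLA Ti libraries.

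LCN2, lipocalin 2, which binds the iron carriers of bacteria, was detected in all 16 libraries. It stood at 9.12, 5.25, 189.7 and 36.7 CPM in Sham libraries 1 to 4. It stood at 103.7, 20.9, 2.90 and 534 CPM in Turned Ti, and at 640.2, 40.7, 470.0 and 426 CPM in SLA Ti. The Turned Cu libraries held 3.01, 9.76, 8.79 and 7.23 CPM, below every SLA Ti library but overlapping Sham and Turned Ti. Means were 60.2 ± 87.5 CPM in Sham, 165 ± 250 in Turned Ti, 394 ± 253 in SLA Ti and 7.20 ± 2.98 in Turned Cu (SD, n = 4 each).

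CAMP, the cathelicidin precursor from which an antimicrobial peptide is cut, stood within 1 rank of LCN2 in each of the 12 libraries without copper. Sham libraries 1 to 4 held 4.59, 0.942, 82.1 and 17.6 CPM. Turned Ti held 42.8, 7.33, 2.19 and 129.8 CPM, SLA Ti held 239, 18.8, 232 and 111.9 CPM, and Turned Cu held 1.58, 5.85, 6.75 and 3.27 CPM. Sham 3, Turned Ti 4 and SLA Ti 1 were again the highest of their groups, and copper again lay below SLA Ti without overlap and overlapped the other groups. Means were 26.3 ± 37.9 CPM in Sham, 45.5 ± 58.99 in Turned Ti, 150.4 ± 105 in SLA Ti and 4.36 ± 2.37 in Turned Cu (SD, n = 4 each).

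**Figure D1:**
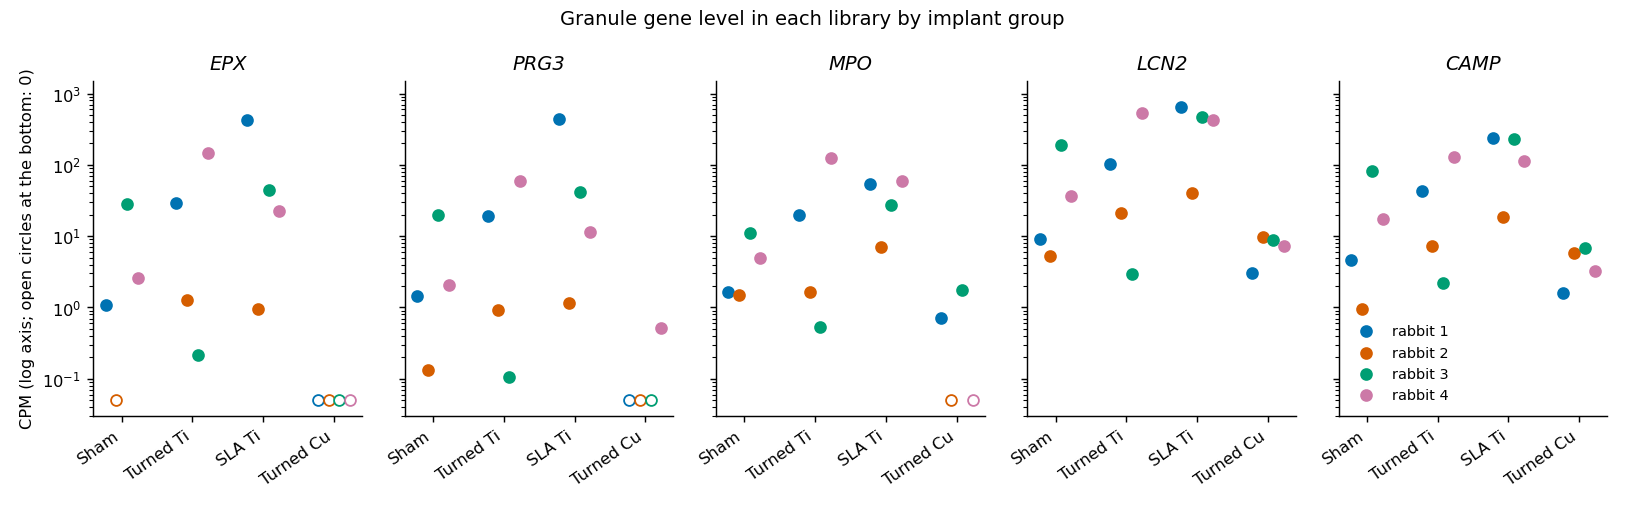
CPM (log axis) of the 5 granule genes in every library, by implant group, with one colour per rabbit and open circles at the bottom for libraries at 0. EPX sits at 0 in all 4 copper libraries and PRG3 in 3 of them, and rabbit 2 (orange) lies at the low end of the SLA Ti group for every gene.

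The comparison of copper with the rough titanium surface separated the members most. All 5 fell in Turned Cu against SLA Ti in edgeR's quasi-likelihood test, adjusted over all genes by the Benjamini-Hochberg method, where 31% of the 11617 genes were called and 15.7% were called lower. PRG3 differed by -9.93 ± 2.49 (log2 fold change ± SE, adjusted p = 0.0070) and LCN2 by -5.78 ± 1.44 (adjusted p = 0.00692). MPO differed by -5.74 ± 1.49 (adjusted p = 0.00863) and CAMP by -5.10 ± 1.34 (adjusted p = 0.00907). EPX passed edgeR's test with an adjusted p of 0.0131, and copper held no read of it. Its fold is given as a bound, the SLA Ti mean over a floor of 3 counts in the copper group. This bound was 1059-fold, or 195-fold without SLA Ti 1. From pooled counts the lower 95% counting limit was 962-fold. It differs from the bound both in how libraries are weighted and in using an exact limit for 0 counts in place of the floor. Every member was lower in copper in 4 of 4 rabbits and the groups did not overlap, which holds for 14.6% of all genes. The exact two-sided permutation test of log2 CPM gave 0.0286 for each member, the smallest value that 4 libraries against 4 allow. The median log2 fold change of the members was -5.78, also with EPX set at its bound, beside -0.02 over all genes tested.

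Counted reads put the copper values in proportion. PRG3 had 12379 counts in SLA Ti and 3 in copper, a ratio of scaled levels of 1194 (95% counting interval 408 to 5789). SLA Ti 1 held 11392 of these counts, and without it PRG3 differed by -7.16 (adjusted p = 0.0269 in edgeR's test). Without Turned Cu 4 copper held no read of PRG3, so no fold is given there (adjusted p = 0.0223 in edgeR's test). LCN2 had 32660 counts against 182, and the fitted difference corresponded to 54.8-fold. MPO had 2958 counts against 19, and differed by -7.23 without Turned Cu 3, which held 14 of the 19. The 5 calls were kept when each of the 8 libraries was left out in turn.

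Against the turned titanium surface, which matches the copper implants in finish, all 5 members also fell, where 40.7% of genes were called and 19.6% were called lower. MPO differed by -5.71 ± 1.49 (adjusted p = 0.00556), LCN2 by -4.52 ± 1.36 (adjusted p = 0.0136) and CAMP by -3.38 ± 1.25 (adjusted p = 0.0384) in edgeR's test. PRG3 differed by -7.28 ± 2.40 (adjusted p = 0.0224). EPX passed with an adjusted p of 0.0175 in edgeR's test, and its bound was 384-fold, or 87.4-fold without Turned Ti 4. The lower 95% counting limit from pooled counts was 208-fold. Only EPX did not overlap between the groups, as did 16.3% of all genes in the lower direction, since Turned Ti 3 held less of each of the other 4 members than the highest copper library. The exact permutation test gave 0.0286 for EPX, 0.0571 for PRG3, 0.143 for MPO, 0.229 for LCN2 and 0.200 for CAMP. The separation of EPX rests on Turned Ti 3, whose 0.215 CPM (6 counts) lay below the floor of 3 counts in every copper library, so it was not resolved at this depth. Turned Ti 4, the highest library of that group for every member, carried part of these calls: without it LCN2 differed by -2.70 (adjusted p = 0.0692), CAMP by -2.12 (adjusted p = 0.151) and PRG3 by -5.86 (adjusted p = 0.0557), while MPO was still called at a smaller difference of -3.46 (adjusted p = 0.0317). Without Turned Cu 3 MPO differed by -7.24. With the rabbit as a block CAMP differed by -2.85 (adjusted p = 0.0853). PRG3 missed the threshold without Turned Cu 1 or Turned Cu 3, and CAMP without Turned Cu 1, 2 or 4.

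Against Sham, 0 of the 5 members passed edgeR's test, in a comparison where 42.8% of all genes were called and 19.6% were called lower. LCN2 differed by -3.07 ± 1.28 (adjusted p = 0.0627), CAMP by -2.59 ± 1.21 (adjusted p = 0.0942) and MPO by -2.81 ± 1.42 (adjusted p = 0.121). PRG3 differed by -5.57 ± 2.42 (adjusted p = 0.0735). EPX had an adjusted p of 0.0613 in edgeR's test and a bound of 68.1-fold, or 10.4-fold without Sham 3. Its lower 95% counting limit from pooled counts was 57.5-fold. Unadjusted p-values of edgeR's test were under 0.05 for 4 of the 5, MPO being the exception at 0.0639, and for 50.2% of all genes. No member was separated from Sham without overlap, which 18.4% of all genes were in the lower direction. All 5 estimates were negative, and the median of -3.07 stood beside -0.06 over all genes. Copper was the lower library in 4 of 4 rabbits for PRG3 and MPO and in 3 of 4 for EPX, LCN2 and CAMP. In rabbit 2 LCN2 and CAMP were higher in copper than in Sham, and EPX was at 0 in both.

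The call against Sham depended on the test. DESeq2 called 4 of the 5 lower, namely EPX (adjusted p = 0.00111), PRG3 (0.0106), LCN2 (0.0220) and CAMP (0.0499). Of all 11617 genes it called 5515, of which 2974 were lower. The authors' deposited table gives a log2 fold change of -7.64 for EPX with q = 0.0315, -5.52 for PRG3 with q = 0.0214, -2.65 for MPO with q = 0.0291, -2.95 for LCN2 with q = 0.0237 and -2.45 for CAMP with q = 0.113. Copper held no read of EPX, so their value for it is not a measured size. A second deposited comparison with Sham used only Turned Cu 2 and Turned Cu 4. There q was 0.0856 for EPX, 0.123 for PRG3, 0.155 for LCN2, 0.275 for CAMP and 0.000123 for MPO. With the rabbit as a block EPX passed edgeR's test (adjusted p = 0.0496) and the other 4 did not, where 4875 genes were called, 2232 of them lower. In that fit LCN2 shrank to -1.97 (adjusted p = 0.263) and CAMP to -1.44 (adjusted p = 0.393). PRG3 stood at -5.90 (adjusted p = 0.0546) and MPO at -2.91 (adjusted p = 0.0804). Without Sham 3, which held 78.0% to 88.5% of the group's CPM of EPX, PRG3, LCN2 and CAMP, PRG3 differed by -3.55 (adjusted p = 0.266), LCN2 by -1.44 (adjusted p = 0.341) and CAMP by -1.02 (adjusted p = 0.492). MPO then differed by -2.11 (adjusted p = 0.272).

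**Figure D2:**
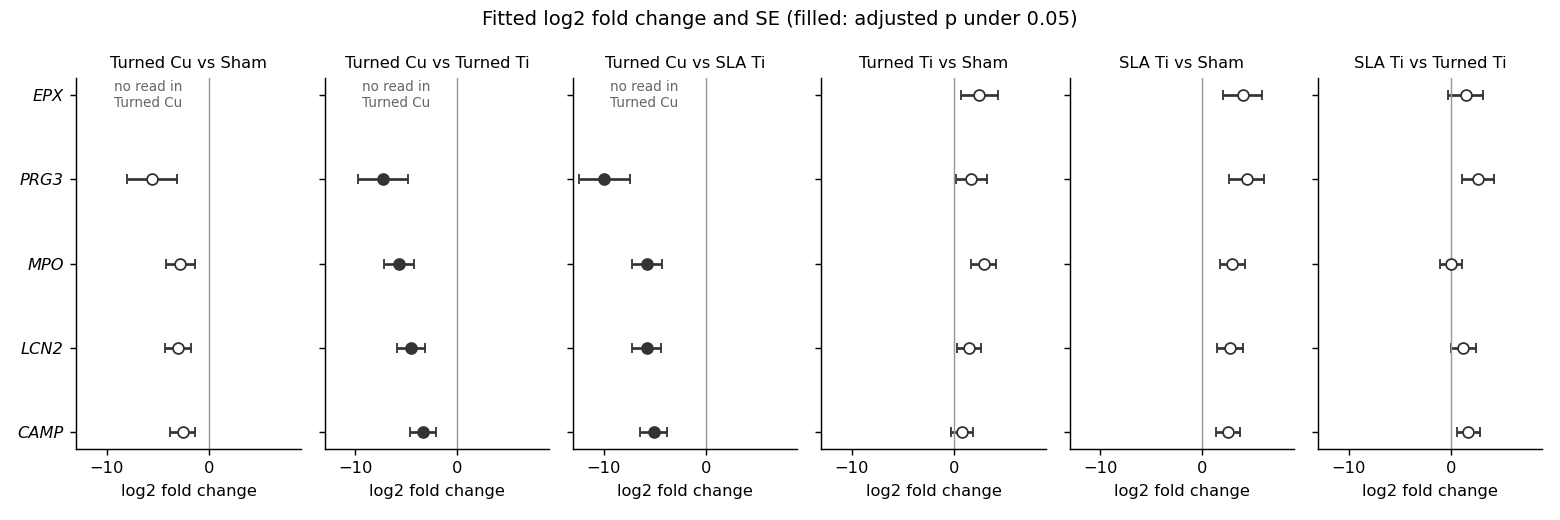
Fitted log2 fold change (points) with its SE (bars) of the granule genes in the 6 comparisons of groups, first group minus second, filled where the adjusted p was under 0.05. The 5 genes were called lower in copper against both titanium groups and not against Sham; EPX is left without a point where copper held no read.

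Other properties of the copper libraries moved with these differences. Copper libraries had 7445 to 8362 genes with at least 10 counts against 8320 to 11358 elsewhere, and their mitochondrial shares are given above. Leaving ribosomal RNA and mitochondrial genes out of the scaling and the test moved 0 of the 5 calls in each of the 3 copper comparisons. Summed CPM of 10 osteoblast and bone matrix genes ran from 393 to 2771 in copper and from 1885 to 22360 in the other groups, and that of 11 erythroid precursor genes from 31.3 to 75.1 against 11.5 to 554. The part of these cells in the granule genes' differences was not tested.

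The rough titanium surface had the highest mean of every member, but the difference from Sham did not pass the test for any of them. SLA Ti exceeded Sham by 3.94 ± 1.91 for EPX, 4.36 ± 1.71 for PRG3, 2.93 ± 1.22 for MPO, 2.71 ± 1.24 for LCN2 and 2.51 ± 1.17 for CAMP (log2 fold change ± SE). The adjusted p-values of edgeR's test ran from 0.242 for PRG3 to 0.372 for EPX, and 0% of all genes were called. At an unadjusted p under 0.05 stood 4 members and 1660 of 11617 genes, and DESeq2 called 353 genes and 0 members. Each member was higher in SLA Ti than in Sham in 4 of 4 rabbits, beside a median log2 fold change of 2.93 for the members and -0.0015 for all genes. Without SLA Ti 1 the estimates were 1.50 for EPX and 1.58 for PRG3. CAMP passed once the rabbit, the side and the end of the bone were all in the model (3.71, adjusted p = 0.0465). For MPO the authors' deposited table gives 3.03 with q = 0.00591, and for the other 4 members q-values of 0.147 or more.

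Turned titanium did not separate from Sham or from SLA Ti for any member. Against Sham the log2 fold changes were 2.48 ± 1.79 for EPX, 1.71 ± 1.54 for PRG3, 2.90 ± 1.21 for MPO, 1.46 ± 1.19 for LCN2 and 0.78 ± 1.12 for CAMP, each with an adjusted p of 1 in edgeR's test. In that comparison edgeR and DESeq2 called 0% of all genes, and 290 genes, MPO among them, had an unadjusted p under 0.05 in edgeR's test. Turned Ti was the higher library in rabbits 1, 2 and 4 and the lower one in rabbit 3 for all 5 members. Without Turned Ti 4 the estimates for LCN2 and CAMP turned to -0.51 and -0.61.

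SLA Ti stood above Turned Ti by 1.47 ± 1.72 for EPX, 2.65 ± 1.57 for PRG3, 1.26 ± 1.18 for LCN2 and 1.73 ± 1.14 for CAMP, with adjusted p-values of edgeR's test from 0.625 to 0.804. MPO differed by 0.03 ± 1.12 (adjusted p = 0.994), a sign that RLE scaling turned, and its means of 37.3 and 36.5 CPM arose from unlike groups, one spread over 3 rabbits and the other mostly in Turned Ti 4. Of all genes 0% were called by edgeR in this comparison, 1048 had an unadjusted p under 0.05 and DESeq2 called 105. EPX turned to -0.97 and PRG3 to -0.12 without SLA Ti 1, and MPO moved to 2.36 without Turned Ti 4.

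Site along the bone was balanced over the groups, with 2 proximal and 2 distal sites in each. In edgeR's model of group and end, EPX had a proximal minus distal difference of 3.32 ± 1.32 and PRG3 one of 3.33 ± 1.19, and these 2 had an unadjusted p under 0.05. LCN2 (1.62 ± 0.81), CAMP (1.50 ± 0.78) and MPO (0.76 ± 0.94) had the same sign, although MPO turned to -0.49 without Turned Ti 4. After adjustment over all genes each stood at 0.993 in edgeR's test, where 0% of genes were called, 479 had an unadjusted p under 0.05 and DESeq2 called 0. Without a filter on low counts EPX, PRG3, LCN2 and CAMP were called at the proximal end, and the cause of that change was not tested.

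Among the 12 libraries without copper the members varied together across implants and rabbits. SLA Ti 1, Turned Ti 4, SLA Ti 3, SLA Ti 4, Sham 3 and Turned Ti 1 held the upper 6 ranks for all 5 genes, and the remaining 6 libraries held the lower ranks for all 5. Within the upper 6 are 3 SLA Ti, 2 Turned Ti and 1 Sham library, and none of rabbit 2. Pearson's r of log2 CPM ran from 0.89 (PRG3 with MPO) to 0.99 (EPX with PRG3) over the 10 pairs, with Spearman's rho from 0.87 to 0.99. These 12 points share 4 animals, their depth and their scaling, so the correlation is a description. EPX spanned 0 to 425 CPM over them, PRG3 was 4064 times as high in the highest as in the lowest library, and MPO, LCN2 and CAMP were 231, 220.4 and 254 times as high.

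**Figure D3:**
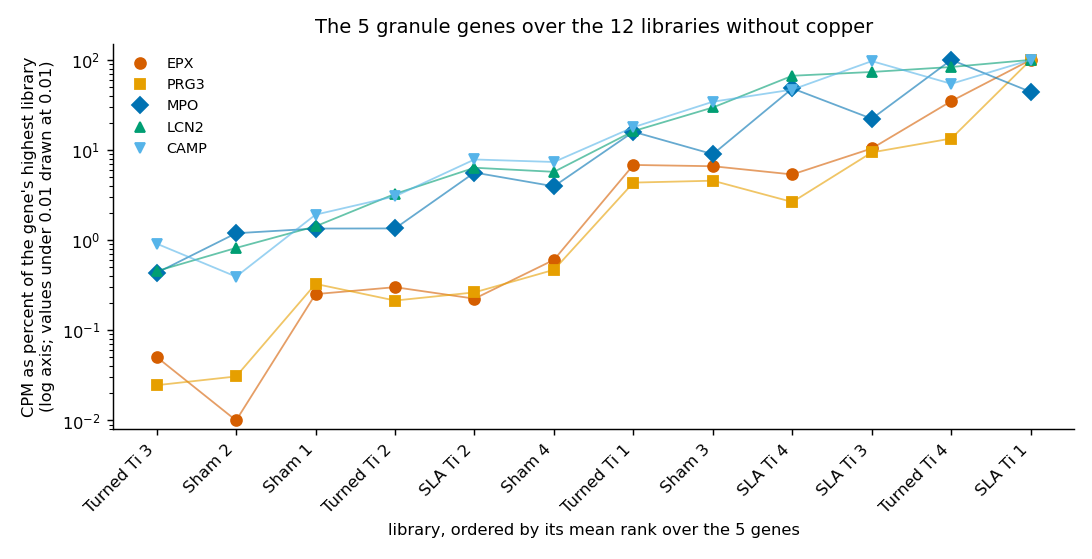
CPM of each granule gene as a percent of its highest library (log axis) over the 12 libraries without copper, ordered by mean rank over the 5 genes. All 5 climb from left to right, and the eosinophil genes EPX and PRG3 reach further down than MPO, LCN2 and CAMP.

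Rabbit 2 had the lowest average of every member. Its 3 libraries without copper averaged 0.744 CPM of EPX, against 24.2 to 152 CPM in the other rabbits, and 0.740 CPM of PRG3 against 20.4 to 153. For LCN2 the average was 22.3 CPM in rabbit 2 and 221 to 332 CPM in the others. These averages rest on few libraries. EPX ran from 1.07 to 425 CPM in rabbit 1 and from 0.215 to 44.3 CPM in rabbit 3. Turned Ti 3 lay below Turned Ti 2 for every member. Ribosomal RNA took 65.3%, 11.0% and 1.83% of the 3 libraries of rabbit 2, and its part in the low values was not tested.

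The proportions of the granule genes differed between libraries. Levels of different genes are compared here per length, with effective lengths implied by the deposited RPKM. EPX over MPO, an eosinophil to neutrophil ratio of peroxidases, was 7.55 (95% counting interval 7.15 to 7.99) in SLA Ti 1 and 0.133 (0.0869 to 0.197) in SLA Ti 2. SLA Ti 3 stood at 1.56 (1.40 to 1.74) and SLA Ti 4 at 0.370 (0.323 to 0.423), so the 4 libraries of this group did not overlap within counting error. Sham ran from 0.510 to 2.45 and Turned Ti from 0.389 to 1.43, both inside the SLA Ti range. Within the eosinophil lineage EPX over PRG3 ran from 0.165 to 0.556 over 10 libraries. Within the neutrophil lineage LCN2 over CAMP ran from 0.838 to 3.59 over all 16 libraries and CAMP over MPO from 5.52 to 44.4 over 12. LCN2 over MPO, secondary over primary granules, ran from 12.0 to 57.9 over the 12 libraries without copper and reached 57.8 in Sham 3 and 57.9 in SLA Ti 3, both from rabbit 3. Turned Ti 3, from the same rabbit, stood at 18.3 (10.5 to 34.3).

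**Figure D4:**
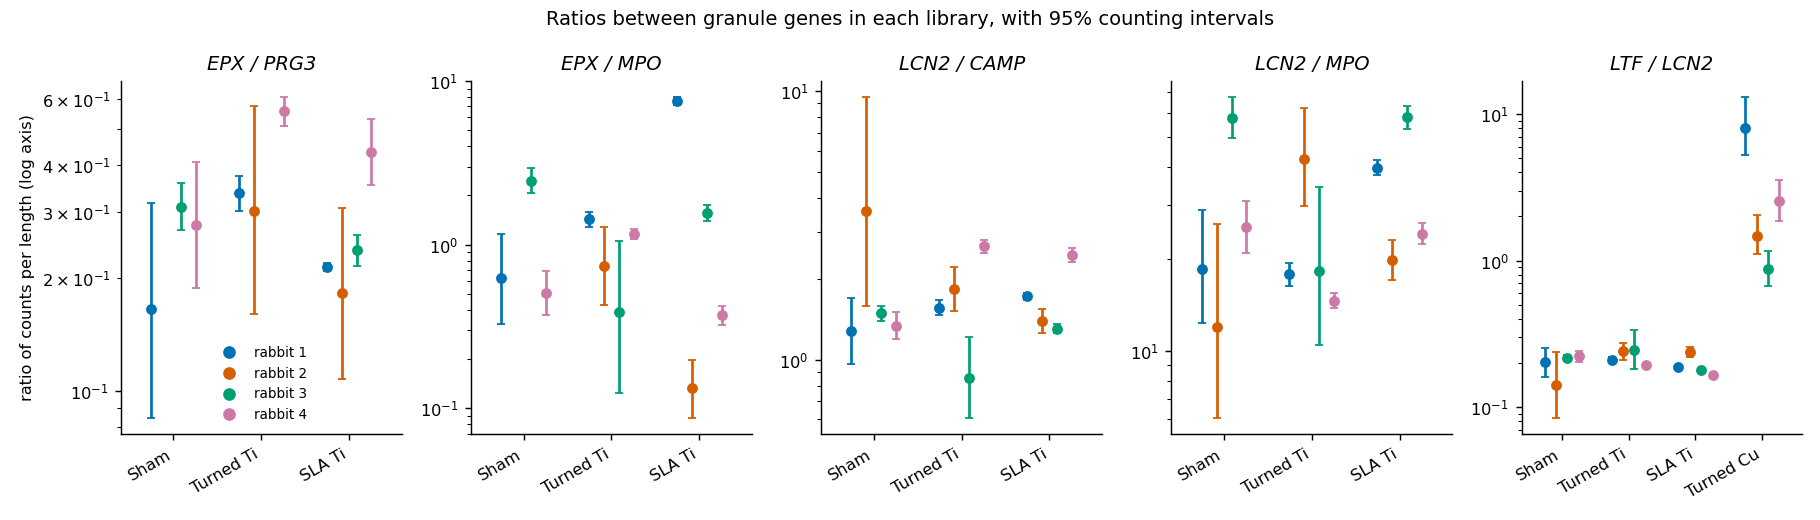
Ratios of counts per length between pairs of granule genes in single libraries (log axes), with 95% counting intervals and one colour per rabbit. EPX over MPO spreads from 0.133 to 7.55 within SLA Ti, and LTF over LCN2 stays between 0.141 and 0.246 outside copper and lies between 0.880 and 8.04 in copper.

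Genes whose log2 CPM most resembled a member over the 12 libraries were ranked by Pearson's r. For EPX they were PRG3 (0.99), the filamin partner RFLNB (0.98), the arachidonate lipoxygenases ALOX5 (0.97) and ALOX15 (0.97) and the kinase LRRK2 (0.97). PRG3 had EPX, LRRK2, RFLNB, ALOX5 and NHSL2 (0.99 to 0.97). MPO had BPI (0.99), a primary granule protein that binds endotoxin, then SLC66A3, LMLN2, PADI3 and FAR2 (0.98 to 0.97). LCN2 had lactoferrin LTF (1.00), the hexokinase HK3, NLRP12, TMEM164 and PADI3 (0.99). CAMP had LTF (0.99), TMEM164, CEBPE, LCN2 and NLRP12 (0.98). CEBPE, named here for CAMP, is the transcription factor that secondary granule genes require in mouse and human.

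One of these genes, LTF, the iron-binding protein stored with LCN2 in secondary granules, stood at 123, 73.4, 39.2 and 93.3 CPM in Turned Cu libraries 1 to 4, and at 9.35, 3.77, 208 and 41.3 CPM in Sham. Its log2 fold changes in copper were 0.32 against Sham (adjusted p = 0.848), -1.01 against Turned Ti (adjusted p = 0.521) and -2.13 against SLA Ti (adjusted p = 0.189) in edgeR's test. LTF was not alone in this. By the same test TMEM164 (2.53, adjusted p = 0.00941), LRRK2 (2.11, adjusted p = 0.0195) and SLC66A3 (1.76, adjusted p = 0.0395) were higher in copper than in Sham. ALOX15, BPI, CEBPE, NHSL2 and RFLNB had negative estimates against Sham that did not pass. Per length, LTF over LCN2 was 0.141 to 0.246 in all 12 libraries without copper and 8.04, 1.48, 0.880 and 2.54 in Turned Cu 1 to 4. The ratio of LTF to CAMP was 0.210 to 0.511 without copper and 0.737 to 9.88 with copper. Both ratios were thus higher in copper without overlap. LTF was picked for its likeness to LCN2 and CAMP outside copper and the ratios were chosen after their values were seen, so they are a description with no test.

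The wider lists show where the members stood among granulocyte genes. Of all genes, 15.7% were called lower and 15.3% higher in copper against SLA Ti. These shares were 19.6% and 21.1% against Turned Ti, and 19.6% and 23.2% against Sham, and they stand beside the counts of every list below. Of the 12 primary granule genes listed, 8 had a name in the table and 7 were tested. ELANE, PRTN3, AZU1 and PRSS57 had no named row, and CTSG fell to the filter. Against SLA Ti, MPO and BPI (-4.20 ± 1.16) fell in copper and the proteoglycan SRGN rose. Against Turned Ti the same count held, with BPI at -3.68 (adjusted p = 0.0159) and SRGN at 5.80 (adjusted p = 0.000426). Against Sham 2 rose and 0 fell, SRGN by 6.67 ± 1.11 (adjusted p = 0.000166) and lysozyme, LYZ, by 1.59 ± 0.46 (adjusted p = 0.00983). SRGN and LYZ are made by many myeloid cells. The median of the 7 was 1.27 against Sham, 0.05 against Turned Ti and -0.07 against SLA Ti.

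Of 18 secondary and tertiary granule genes, 12 were named and tested. Against SLA Ti 4 fell and 0 rose: LCN2, CAMP, the collagenase MMP8 (-5.28, adjusted p = 0.0245) and QPCT (-2.64, adjusted p = 0.00478), an enzyme that modifies peptide ends. Against Turned Ti the same 4 fell, and ARG1, PGLYRP1 and CHI3L1 rose. Against Sham 1 fell, QPCT (-2.44 ± 0.62), and 4 rose, among them arginase ARG1 by 6.45 ± 1.22 and the peptidoglycan receptor PGLYRP1 by 4.77 ± 1.09. Also higher against Sham were the integrin ITGAM (2.24 ± 0.75) and CHI3L1 (3.07). Median log2 fold changes of the list were -0.52, -0.76 and -0.63 against Sham, Turned Ti and SLA Ti.

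Eosinophil genes beside the members were few, since 8 of 15 had no named row, PRG2, CCR3 and IL5RA among them, and 4 were tested. ALOX15, a lipoxygenase made by eosinophils but not by them alone, was listed at 0 counts in all 4 copper libraries and at 17.6 CPM in SLA Ti 1. It passed edgeR's test against SLA Ti only (adjusted p = 0.0288), and which cells its reads came from was not tested. CEBPE passed in none of the 3 comparisons, with adjusted p-values of 0.0820 or more. EPX and PRG3 passed against both titanium groups and neither passed against Sham.

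Mature neutrophil genes took the other direction in copper. Of 12 tested, 12 rose against Sham, 11 against Turned Ti and 1 against SLA Ti, where 23.2%, 21.1% and 15.3% of all genes were called higher, with medians of 4.43, 3.57 and 1.22. The oxidase subunit NCF4 (2.91 ± 0.60), the decoy receptor IL1R2 (6.52 ± 1.18) and the formyl peptide receptor FPR2 (5.69 ± 1.11) were among the 4 with the smallest p-values against Sham. Their summed CPM ran from 1393 to 2766 in copper and from 18.6 to 308 in Sham. SLA Ti ran from 91.7 to 2600 and thus overlapped copper. The copper libraries thus combined low levels of EPX, PRG3, MPO, LCN2 and CAMP with a high summed level of mature neutrophil genes.

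**Figure D5:**
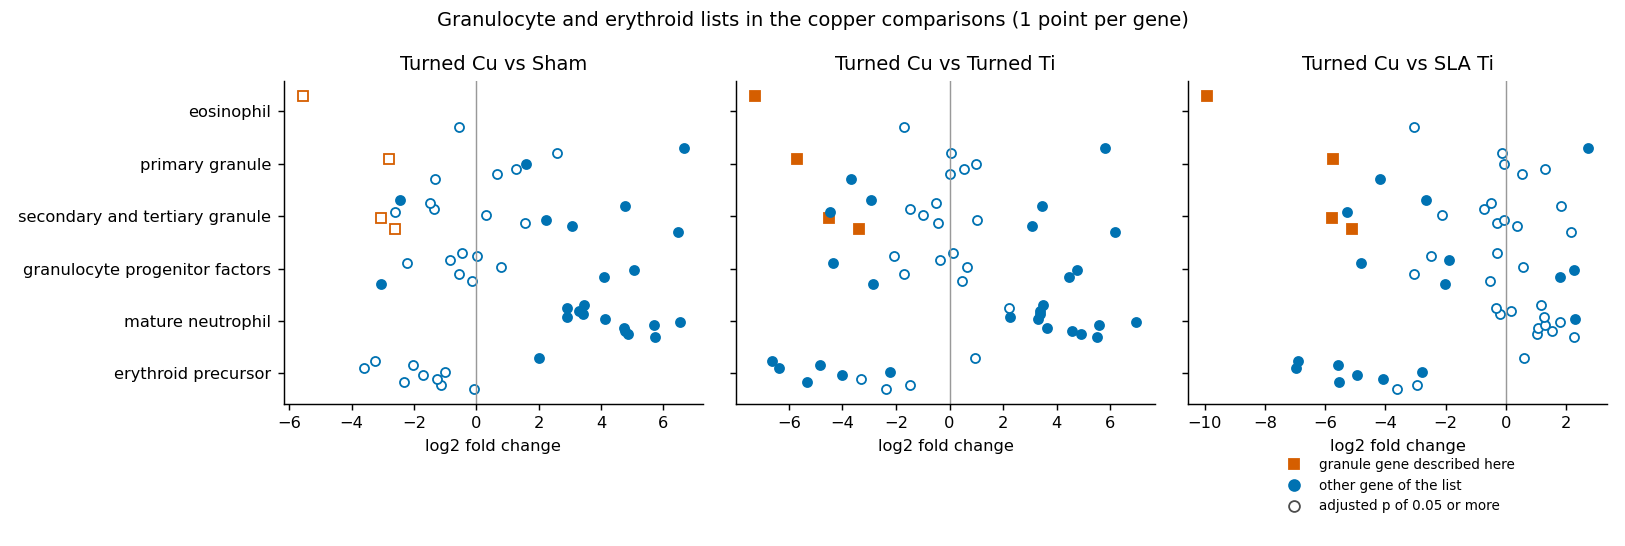
Fitted log2 fold change of each tested gene in 6 lists for the 3 copper comparisons, filled where the adjusted p was under 0.05, with granule genes as squares and genes without a read in copper left out. Mature neutrophil genes lie to the right of 0 against Sham (12 of 12 called), while MPO, PRG3, LCN2 and CAMP lie to the left in all 3 panels.

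Factors of granulocyte progenitors did not move as one. Of 10 tested, 2 rose in copper against each group, the receptor chain CSF2RB (5.05 ± 0.83 against Sham) and the transcription factor CEBPB (4.09 ± 0.58). CD34, which marks progenitors and also vessels, differed by -3.05 ± 0.63 (adjusted p = 0.000891) against Sham. GFI1, a repressor needed for neutrophil precursors in mouse and human, fell against SLA Ti (-4.81, adjusted p = 0.0363) and Turned Ti (-4.37, adjusted p = 0.0495) on 1 count in copper. KIT fell against SLA Ti, and MYB, FLT3, RUNX1, CEBPA and CEBPE passed in none of the 3.

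Erythroid precursor genes, which also mark marrow, shared part of the pattern. Of 11 tested, 8 fell in copper against SLA Ti, 6 against Turned Ti and 0 against Sham, with medians of -4.94, -4.02 and -1.71. Of all genes, 15.7%, 19.6% and 19.6% were called lower in these comparisons. The anion exchanger SLC4A1 differed by -6.96 (adjusted p = 0.00526) against SLA Ti and by -3.60 (adjusted p = 0.0712) against Sham. TFRC, the transferrin receptor, which other cells also make, rose by 2.03 ± 0.49 against Sham. The comparisons share the copper libraries, so their counts are not independent of each other.

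Lists of other cells had no such pattern in every case. Of all genes, 15.7% were called lower and 15.3% higher in copper against SLA Ti, and 19.6% and 23.2% against Sham. Monocyte and macrophage genes rose in 3 and fell in 3 of 10 against SLA Ti, and rose in 3 and fell in 0 against Sham. Dividing cell genes fell in 3 and rose in 1 of 10 against SLA Ti. Basophil and mast cell genes fell in 1 of 4 against SLA Ti (KIT) and in 0 against the other groups. Megakaryocyte genes fell in 2 of 4 against SLA Ti, and ITGA2B, the platelet integrin chain, differed by -4.40 against Sham on 3 counts in copper. Among genes that draw granulocytes or hold them in marrow, CXCL8 averaged 2303 ± 769 CPM (SD, n = 4) in copper, 599 ± 1154 in SLA Ti, 1.11 ± 0.222 in Turned Ti and 1.24 ± 1.17 in Sham. The summed level of that list reached 2500.0 CPM in 1 SLA Ti library, inside the copper range of 1915 to 3600, and the adhesion molecule VCAM1 differed by -4.79 ± 0.96 against Sham. Over the 12 libraries without copper, r with the members ran from -0.81 to -0.31 for osteoblast genes and from 0.61 to 0.98 for mature neutrophil genes.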

How the data were processed

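Total RNA of 16 libraries, 4 per group, was sequenced as read pairs of 75 bp, per the labels. The submitters' processing notes list STAR 2.7.1a and Cufflinks 2.2.1 without a role, and a genome build is not stated in the sources used here. The deposited gene table holds read counts per gene, which were taken as estimated counts because 191 zero counts stand beside an RPKM above 0. They were rounded to whole numbers. The same table holds RPKM values, which the authors normalized to gene length and library size per the file headers, and which served here to work out effective lengths. It also holds the authors' deposited log2 fold change, p-value and q-value of each comparison, whose test is not stated. Their log2 fold change is the second named group over the first, and values are quoted here with copper or SLA Ti as numerator.

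Of 29587 genes, 14537 carry a symbol and 67 more were named from a RefSeq description. Genes kept by filterByExpr (minimum count 10) were scaled by TMM and fitted with edgeR 4.0.16 in R 4.3.3, with 1 mean per group over all 16 libraries (common dispersion 0.206). Two-sided quasi-likelihood tests were adjusted by Benjamini-Hochberg over 11617 genes at 0.05, and DESeq2 1.42.0 was an alternative. The script was tested on simulated data. SE is the size of the log2 fold change divided by the root of its F statistic. CPM refer to scaled library sizes, and log2 CPM for correlations used a prior count of 2. Where a group held no read of a gene, its fold became a bound, the mean CPM of the other group over 3 counts in that whole group. Intervals for counts are 95% exact binomial ones on counts pooled over a group or within a library. Intervals and floors cover counting error only.

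The members and lists were chosen with earlier results of these data known. Named are the 5 members, up to 4 genes of smallest p in Turned Cu against Sham per list, and the 5 genes most like each member. One gene that this rule names is not reported here. Other named genes, among them those called in a list, were chosen after their values were seen.

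A library number names a rabbit, so libraries of different groups with 1 number come from the same animal. The mean correlation of their deviations from the group means was 0.085, 0.119, 0.047 and 0.092 for rabbits 1 to 4. The 4 libraries of a group are from separate animals, and 0 pairs of libraries were identical.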

Additional observations from a re-analysis of the deposited data

Results flagged for a closer look

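In groups of 4 libraries, a library was looked at again where its gap to the nearest other, over the range of the group, exceeded Dixon's critical value. Of 19 groups of a gene checked 7 were marked. A chance rate of about 1 such group in 20 holds only for normally distributed values. The CPM were skewed, and the members varied together over the same libraries. The count of 7 can therefore not be judged against that rate, and the marks only point to libraries. EPX stood apart in Sham 3 (28.1 CPM) and in SLA Ti 1 (425 CPM). PRG3 stood apart in the same libraries, Sham 3 (19.96 CPM) and SLA Ti 1 (437 CPM). It was also marked in Turned Cu 4 (0.516 CPM), where it rests on 3 counts. The rest of that group held no read of PRG3, so any count there would have been marked. MPO stood apart in Turned Ti 4 (124 CPM) and LCN2 in Sham 3 (189.7 CPM). CAMP had no such library. Turned Ti 4 is 1 of the 3 libraries rich in ribosomal RNA, and Sham 3 and SLA Ti 1 are not.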

How the results depend on the processing

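Of 625 refitted values of the 5 members, 567 kept direction and side of the threshold, 24 passed it newly, 15 lost it and 19 changed sign, each of these in a comparison in which that member was not called. Against SLA Ti the calls of copper held for all 5 members under every alternative run. The exact permutation tests among the 625 values were judged at an unadjusted p under 0.05, unlike the adjusted p of the fits. Copper against Sham was called without a filter on low counts for EPX (-10.09), PRG3 (-5.80), MPO (-3.01), LCN2 (-3.32) and CAMP (-2.84), and by DESeq2 for EPX (-8.20), PRG3 (-5.73), LCN2 (-3.19) and CAMP (-2.70). With the rabbit as a replicate block EPX was called (-10.17), and with side and end added EPX (-7.87) and PRG3 (-3.73). After seeing the data, the 3 libraries rich in ribosomal RNA were left out, which called EPX (-10.59), PRG3 (-6.08), LCN2 (-3.58) and CAMP (-3.11), and then rabbit 2, which called EPX (-10.51). Leaving out 1 library at a time, LCN2 against Sham ran from -3.57 to -1.44 and was called without Sham 1 or Sham 2. Copper against Turned Ti lost CAMP with the replicate block (-2.85), and LCN2 (-2.70) and CAMP (-2.11) without the 3 libraries. Leaving out 1 library, PRG3 ran from -11.47 (without Turned Cu 4, when copper held no read of it, so this is no bound) to -5.86, LCN2 from -4.94 to -2.70 and CAMP from -3.96 to -2.12. Mean differences in log2 CPM of PRG3 (-4.49), MPO (-4.25), LCN2 (-2.69) and CAMP (-2.17) did not pass the exact permutation test there.

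Signs changed in Turned Ti against Sham without the 3 libraries, to -0.054 for EPX, -0.22 for PRG3, -0.89 for LCN2 and -0.998 for CAMP, and with 1 library left out LCN2 ran from -0.51 to 3.28 and CAMP from -0.61 to 2.53. In SLA Ti against Turned Ti MPO was -0.014 with RLE scaling, -0.0079 without a filter, -0.018 with DESeq2 and -0.050 without rabbit 2. With 1 library left out MPO ran there from -0.38 to 2.36, EPX from -0.97 to 3.58 and PRG3 from -0.12 to 4.18. At the proximal end MPO was -0.72 without the 3 libraries and ran from -0.49 to 1.25 with 1 library left out.

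Genes called in SLA Ti against Sham numbered 195 without a filter, 353 with DESeq2, 44 with block, side and end, where CAMP was called (3.71), and 0 to 198 with 1 library left out (32 without SLA Ti 1, 198 without SLA Ti 2). In SLA Ti against Turned Ti they numbered 87, 105, 1 with the block, 1 with block, side and end, and 0 to 36 with 1 library left out (36 without SLA Ti 2). Copper against SLA Ti gave 2133 without rabbit 2. Without a filter the proximal end gave 208 genes, EPX (3.29), PRG3 (3.30), LCN2 (1.56) and CAMP (1.45) among them. The replicate block changed no other call of a member, and the cause of these changes was not tested. In copper, 3 counts equal 0.382 to 0.585 CPM in a single library, which limits what can be said of EPX, PRG3 and MPO there.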

Other observations

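The rabbit's own granule peptides have no symbol in the table and were found by their descriptions, chosen after their values were seen. They are alpha-defensins of neutrophil granules (corticostatin-4, corticostatin-6, defensin NP-3a and defensin NP-4) and the 15 kDa protein A, a relative of the cathelicidins. Corticostatin-4 averaged 53.6 ± 52.2 CPM in Sham, 295 ± 454 in Turned Ti, 444 ± 286 in SLA Ti and 2.40 ± 1.15 in Turned Cu (SD, n = 4 each), and its copper libraries, at 0.718 to 3.27 CPM, did not overlap any other group. By edgeR's test it fell in copper, with log2 fold changes of -4.49 against Sham (adjusted p = 0.00905), -6.95 against Turned Ti (adjusted p = 0.000979) and -7.54 against SLA Ti (adjusted p = 0.00136). Of all genes, 18.4%, 16.3% and 14.6% were lower in copper without overlap in these comparisons. The shares called lower were 19.6%, 19.6% and 15.7%. Defensin NP-4 differed by -3.83 (adjusted p = 0.0383) against Sham, -6.39 against Turned Ti and -6.65 against SLA Ti, and averaged 1.49 ± 1.84 CPM in copper. Against Sham corticostatin-6 differed by -4.49 (adjusted p = 0.0122) and defensin NP-3a by -5.50 (adjusted p = 0.0127) in edgeR's test. Defensin NP-3a held only 2 counts in copper, under the floor of 3, so the size of its fold is uncertain. The 15 kDa protein A had -2.49 (adjusted p = 0.0968) against Sham and passed against both titanium groups, as did all 4 defensins. Corticostatin-4 and corticostatin-6 have overlapping gene models on scaffold GL018713, so the share of reads given to each is uncertain. Corticostatin-related peptide RK-1 was listed at 0 counts in every group.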
